A study of Mus musculus with 8 samples.

Results

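The genes described here encode the machinery of oxidative phosphorylation in cultured fibroblasts of the mouse heart, cells known for making extracellular matrix. They were taken by name from the deposited table: every protein-coding gene whose symbol starts with mt-Nd, mt-Co, mt-Cytb, mt-Atp, Ndufa, Ndufb, Ndufc, Ndufs, Ndufv, Uqcr, Cox4i, Cox5, Cox6, Cox7, Cox8 or Atp5, and Sdha, Sdhb, Sdhc and Sdhd. This gave 107 of 54532 genes, 13 encoded in mitochondrial DNA and 94 in the nucleus. The nuclear ones are 38 genes named for complex I, 4 of complex II, 8 of complex III, 18 of complex IV, 18 of complex V and 8 assembly factors of complex I (Ndufaf genes), which the name rule also takes in. The mitochondrial genes are 7 of complex I, 1 of complex III, 3 of complex IV and 2 of complex V. Of the 107 genes, 101 had at least 1 FPKM (fragments counted in a gene, scaled by its exon length and the depth of the library) in at least 2 of 8 libraries and were tested: all 13 mitochondrial and 88 nuclear genes.

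RNA sequencing was run on 8 libraries at day 7, with 2 libraries in each of 4 groups: EphrinB2-overexpressing cells in osteogenic differentiation medium, EphrinB2-overexpressing cells in complete medium, vector cells in osteogenic medium and vector cells in complete medium. The sources used here give neither the way the construct was delivered, nor the strain, nor whether the libraries of a group are separate cultures, so p-values measure only the spread between libraries, which may be technical. Depth was 16493963 to 20550770 counted reads per library, estimated from the steps between low FPKM values. Efnb2, the gene of EphrinB2, had 5.02 and 18.3 FPKM in EphrinB2 osteogenic cells, 31.3 and 32.8 in EphrinB2 complete cells, 1.39 and 1.27 in vector osteogenic cells and 6.30 and 5.56 in vector complete cells. In each medium both EphrinB2 libraries lay above both vector libraries. EphrinB2 osteogenic replicate 1 and EphrinB2 complete replicate 2 stood apart from their partners across many genes, so results that rest on them are given with and without them. All 10 fibroblast markers examined reached 1 FPKM in at least 1 library, and so did all 10 macrophage markers. In complete medium the macrophage markers Cd163 (0.236 to 0.311 FPKM) and Lyve1 (0.0623 to 0.166) stayed below that level.

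In oxidative phosphorylation, complexes I (NADH dehydrogenase), III (cytochrome bc1) and IV (cytochrome c oxidase) pass electrons to oxygen and pump protons across the inner mitochondrial membrane, and complex V (ATP synthase) uses the proton gradient to make ATP. Complex II (succinate dehydrogenase) feeds electrons into the chain and is encoded wholly in the nucleus. The other complexes are mosaics: a few core subunits are made inside mitochondria from long polycistronic transcripts of mitochondrial DNA, and the rest are made from nuclear genes and imported. Heart muscle is among the tissues richest in this machinery, while cultured fibroblasts also rely on glycolysis.

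Nuclear copies of mitochondrial DNA bear on how the mitochondrial genes can be counted, so a stretch of 3 genes is shown beside an annotated copy, for mt-Co1 the copy that spans the whole gene. Sequences are from the GRCm38 genome, the first base of each transcript is position 1, and capitals mark the bases that differ. The stretch of mt-Co2, a core subunit of complex IV, lies at chrM:7013-7072 on the plus strand, and that of the pseudogene Gm28661 at chr1:24615506-24615565 on the minus strand. They are identical, as are all 681 aligned bases of both genes.
mt-Co2: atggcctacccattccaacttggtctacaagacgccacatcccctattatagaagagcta
Gm28661: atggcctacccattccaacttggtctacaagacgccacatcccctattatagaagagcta
The stretch of mt-Nd3, a small subunit of complex I, lies at chrM:9459-9518 on the plus strand and that of Gm28438 at chr1:24613060-24613119 on the minus strand. T3C is the single difference over 345 aligned bases.
mt-Nd3: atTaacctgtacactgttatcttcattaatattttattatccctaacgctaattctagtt
Gm28438: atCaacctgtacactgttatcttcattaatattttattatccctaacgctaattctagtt
The stretch of mt-Co1, the catalytic subunit of complex IV, lies at chrM:5787-5846 on the plus strand. That of Gm13340 lies at chr2:22589129-22589188 on the minus strand and differs by A462G, A468G, T501C and C519T. Over 1545 aligned bases the pair differ at 37 positions.
mt-Co1: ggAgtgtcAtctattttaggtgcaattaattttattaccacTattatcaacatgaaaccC
Gm13340: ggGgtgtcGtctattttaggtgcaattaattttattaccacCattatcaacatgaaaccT

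The nuclear genes have promoters of their own, and those of 74 members were found in the RefSeq set of mouse promoters (GRCm38.p6, 250 bases before to 50 after the start site). The letters GCGCANGCG, the core of the recognition motif of the transcription factor NRF1, occurred on either strand in 21 of the 74 (28.4%), against 6.47% of all 27025 promoters. The letters CCGGAAG, the core that ETS factors such as GABPA bind, occurred in 17 (23.0%), against 9.12%. The letters AAGATGGCG, a core of the YY1 motif, occurred in 7 (9.46%), against 1.49%. The NRF1 motif is close to a palindrome, so its matches on both strands can overlap. Both the NRF1 and the ETS letters occurred in 6 members (8.11%), against 1.25% of all promoters: Atp5h, Atp5k, Atp5l, Cox6a1, Sdhd and Uqcr11. For 3 of these, whose values are given further on and whose matches of both kinds lie before the start site, the 250 bases before that site are shown 5′ to 3′ on the minus strand, with matches in capitals. They stand at chr11:115419920-115420169 for Atp5h, a stalk subunit of complex V, chr5:115348959-115349208 for Cox6a1, the widely expressed form of a complex IV subunit, and chr9:50603850-50604099 for Sdhd, a membrane anchor of complex II. A match of letters is a description of the sequence and shows no binding in these cells.
Atp5h: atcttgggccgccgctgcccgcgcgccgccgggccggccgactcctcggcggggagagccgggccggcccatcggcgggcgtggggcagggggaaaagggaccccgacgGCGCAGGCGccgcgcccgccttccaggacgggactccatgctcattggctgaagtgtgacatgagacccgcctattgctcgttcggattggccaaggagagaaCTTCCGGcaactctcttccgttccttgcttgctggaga
Cox6a1: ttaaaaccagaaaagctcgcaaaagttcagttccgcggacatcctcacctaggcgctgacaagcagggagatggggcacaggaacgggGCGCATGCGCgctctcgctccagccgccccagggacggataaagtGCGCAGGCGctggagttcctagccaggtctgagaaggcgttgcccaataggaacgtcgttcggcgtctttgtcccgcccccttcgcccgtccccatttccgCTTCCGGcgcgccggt
Sdhd: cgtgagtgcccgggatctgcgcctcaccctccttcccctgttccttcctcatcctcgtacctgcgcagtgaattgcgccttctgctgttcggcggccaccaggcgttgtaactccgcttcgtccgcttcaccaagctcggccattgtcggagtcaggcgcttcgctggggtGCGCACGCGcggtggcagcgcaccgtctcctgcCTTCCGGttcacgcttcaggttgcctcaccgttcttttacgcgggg

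Among the mitochondrial genes, levels fell into a high and a low set. The 7 high genes are mt-Co1, mt-Cytb, mt-Nd1, mt-Nd2, mt-Nd4, mt-Nd5 and mt-Nd6, with 295 to 4105 FPKM over the 8 libraries. mt-Co1 had 2461 and 3289 FPKM in EphrinB2 osteogenic cells, 3080 and 4105 in EphrinB2 complete cells, 3240 and 3072 in vector osteogenic cells and 2908 and 2981 in vector complete cells. It was the gene with the highest FPKM of the whole table in all 4 libraries in complete medium, and its reads made up 36.0% to 44.6% of those of the 13 genes. mt-Cytb, the only mitochondrial subunit of complex III, had 1219 and 1287 FPKM in EphrinB2 osteogenic cells, 1596 and 1793 in EphrinB2 complete cells, 1258 and 1145 in vector osteogenic cells and 1430 and 1442 in vector complete cells. Each osteogenic library thus lay below every complete library of mt-Cytb.

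The 5 high genes of complex I are membrane subunits of its proton-pumping arm. mt-Nd1 had 1646 and 1503 FPKM in EphrinB2 osteogenic cells, 1464 and 2561 in EphrinB2 complete cells, 1413 and 1312 in vector osteogenic cells and 1305 and 1350 in vector complete cells. mt-Nd2 had 928 and 1019 FPKM in EphrinB2 osteogenic cells, 799.8 and 1213 in EphrinB2 complete cells, 978 and 935 in vector osteogenic cells and 724 and 781 in vector complete cells. For both genes EphrinB2 complete replicate 2 held the highest value. mt-Nd4 had 601 and 625 FPKM in EphrinB2 osteogenic cells, 591 and 980.3 in EphrinB2 complete cells, 583 and 532 in vector osteogenic cells and 530.0 and 548 in vector complete cells. mt-Nd5 had 295 and 738 FPKM in EphrinB2 osteogenic cells, 809 and 1861 in EphrinB2 complete cells, 780.3 and 713 in vector osteogenic cells and 804 and 859 in vector complete cells. The lowest and the highest mt-Nd5 value were thus those of the libraries that stood apart. mt-Nd6, the only one of the 13 on the other strand, had 1006 and 591 FPKM in EphrinB2 osteogenic cells, 786 and 1334 in EphrinB2 complete cells, 582 and 553 in vector osteogenic cells and 598 and 647 in vector complete cells. The sources used here do not give the strand setting of the counting, so reads of mt-Nd6 cannot be told apart from antisense transcripts of the opposite strand.

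The 6 low genes had 0.506 to 75.3 FPKM, although most lie between high genes on the same polycistronic transcript. mt-Co2 had 75.3 and 30.7 FPKM in EphrinB2 osteogenic cells, 42.3 and 48.2 in EphrinB2 complete cells, 24.5 and 22.3 in vector osteogenic cells and 28.6 and 26.2 in vector complete cells. mt-Co3, the other core subunit of complex IV, had 28.8 and 14.1 FPKM in EphrinB2 osteogenic cells, 18.4 and 20.8 in EphrinB2 complete cells, 14.9 and 10.6 in vector osteogenic cells and 12.996 and 12.8 in vector complete cells. For both genes EphrinB2 osteogenic replicate 1 was the highest library. mt-Atp6, the proton channel subunit of complex V, had 32.3 and 19.5 FPKM in EphrinB2 osteogenic cells, 25.1 and 20.03 in EphrinB2 complete cells, 15.9 and 12.4 in vector osteogenic cells and 15.9 and 16.7 in vector complete cells. mt-Atp8, whose reading frame overlaps that of mt-Atp6, had 1.67 and 1.27 FPKM in EphrinB2 osteogenic cells, 2.03 and 0.892 in EphrinB2 complete cells, 1.01 and 0.506 in vector osteogenic cells and 1.83 and 0.790 in vector complete cells. All 4 EphrinB2 libraries of mt-Atp6 lay above all 4 vector libraries, while the groups of mt-Atp8 overlapped in complete medium. mt-Nd3 had 16.9 and 10.4 FPKM in EphrinB2 osteogenic cells, 17.4 and 27.7 in EphrinB2 complete cells, 12.9 and 6.38 in vector osteogenic cells and 14.4 and 14.5 in vector complete cells. mt-Nd4l, a small subunit encoded beside mt-Nd4, had 3.28 and 11.7 FPKM in EphrinB2 osteogenic cells, 13.8 and 24.9 in EphrinB2 complete cells, 12.003 and 12.5 in vector osteogenic cells and 11.7 and 11.6 in vector complete cells. As for mt-Nd5, EphrinB2 osteogenic replicate 1 was the lowest and EphrinB2 complete replicate 2 the highest library of mt-Nd4l.

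Of the 6 low genes, 5 were matched along nearly their whole length by a pseudogene on chromosome 1: mt-Co2 (Gm28661), mt-Atp6 (Gm10925), mt-Co3 (Gm28437) and mt-Nd4l (Gm10222) at 100% identity and mt-Nd3 (Gm28438) at 99.7%. These lie on the minus strand between chr1:24611535 and chr1:24616197, with Gm28439, which matches 63.6% of mt-Nd4, and Gm29216, which matches 483 bases of mt-Co1. No annotated copy of at least 97% identity and 50 bases was found for mt-Nd1, mt-Nd2, mt-Nd5, mt-Nd6 and mt-Cytb, all in the high set, nor for mt-Atp8 in the low set. Gm28661 itself had 43.5 and 15.4 FPKM in EphrinB2 osteogenic cells, 25.7 and 23.9 in EphrinB2 complete cells, 15.2 and 12.6 in vector osteogenic cells and 17.4 and 17.4 in vector complete cells. Gm10222 had 1.159 and 10.9 FPKM in EphrinB2 osteogenic cells, 7.22 and 19.4 in EphrinB2 complete cells, 10.02 and 7.55 in vector osteogenic cells and 7.08 and 7.49 in vector complete cells. In both pairs EphrinB2 osteogenic replicate 1 stood on the same side of its partner in the pseudogene as in the mitochondrial gene. That held for the pairs of mt-Atp6, mt-Co3, mt-Nd3 and mt-Nd4 as well, but not for mt-Co1. In EphrinB2 osteogenic cells mt-Co1 was lower in replicate 1, while Gm29216 had 30.3 and 11.6 FPKM and Gm13340 had 1.04 and 0.738. The sources used here do not say how reads that match several places were counted. The levels of the 5 low genes with a matching pseudogene are thus uncertain, and their low values cannot be read as low transcript levels. In the high set mt-Co1 and mt-Nd4 are matched by copies as well. How far this bears on their values, and on sums that include them, was not tested.

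**Figure D1:**
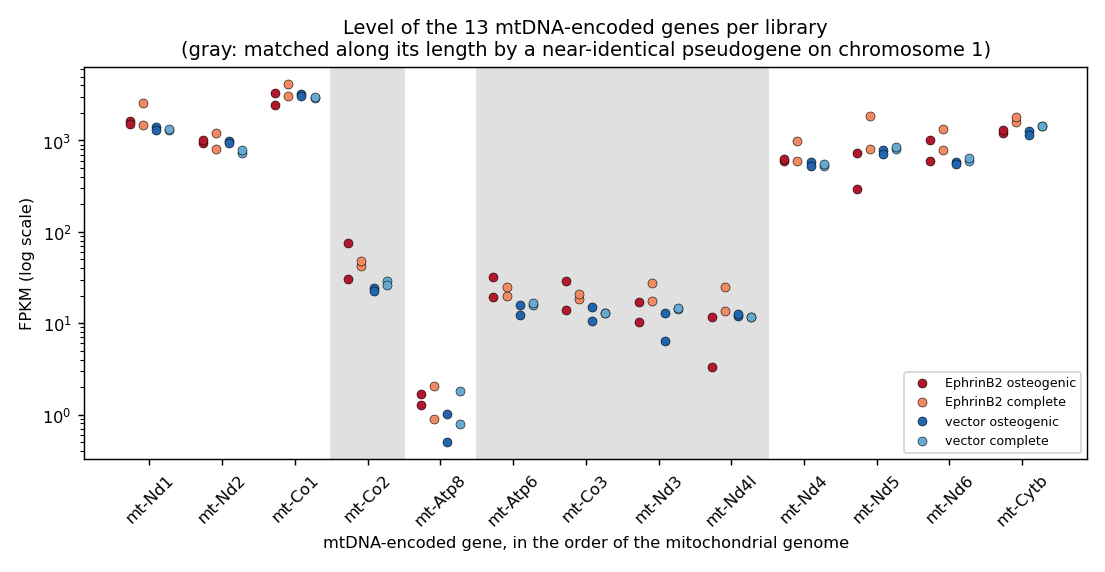
FPKM (log scale) of the 13 mitochondrial genes, in their order along mitochondrial DNA, with a point for each of the 8 libraries colored by group. Gray bands mark the 5 genes matched along their length by a chromosome 1 pseudogene, which sit between 3.28 and 75.3 FPKM, while the 7 high genes sit between 295 and 4105.

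The summed level of mitochondrial genes was above that of the nuclear genes in every library, but the ratio differed between libraries. The mitochondrial genes summed to 8315 and 9139 FPKM in EphrinB2 osteogenic cells, 9245 and 13990.2 in EphrinB2 complete cells, 8916 and 8327 in vector osteogenic cells and 8384 and 8690 in vector complete cells. The 94 nuclear genes summed to 6640 and 2920 FPKM in EphrinB2 osteogenic cells, 3530 and 2198 in EphrinB2 complete cells, 2744 and 2752 in vector osteogenic cells and 3090 and 2953 in vector complete cells. The ratio was 1.25 and 3.13 in EphrinB2 osteogenic cells, 2.62 and 6.36 in EphrinB2 complete cells, 3.25 and 3.03 in vector osteogenic cells and 2.71 and 2.94 in vector complete cells. The ratios of both libraries that stood apart were thus the lowest and the highest of the 8, and the other 6 lay between 2.62 and 3.25. In vector cells the osteogenic libraries lay above the complete ones by 0.15 on the log2 scale. EphrinB2 cells in osteogenic minus complete medium differed by -1.04, which became 0.26 without both libraries that stood apart. EphrinB2 minus vector cells differed by 0.53 in complete medium and by -0.66 in osteogenic medium, which became -0.11 and -0.0027 without both. The pooled SD of the log2 ratio within groups was 0.65, but the groups differed in spread. The log2 ratios were 0.32 and 1.65 in EphrinB2 osteogenic cells and 1.39 and 2.67 in EphrinB2 complete cells. In vector cells they were 1.70 and 1.60 in osteogenic and 1.44 and 1.56 in complete medium. The pooled value thus does not describe the spread of the vector libraries.

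Counted by reads rather than per length, the mitochondrial genes took from 0.973% of counted reads in EphrinB2 osteogenic replicate 1 (95% Wilson interval 0.969% to 0.977%) to 1.76% in EphrinB2 complete replicate 2 (1.76% to 1.77%). The nuclear genes took from 0.400% in EphrinB2 complete replicate 2 (0.397% to 0.404%) to 1.00% in EphrinB2 osteogenic replicate 1 (0.998% to 1.01%). These intervals cover counting error only. In EphrinB2 osteogenic replicate 1 the nuclear genes took more reads than the mitochondrial ones, which held in none of the other 7 libraries.

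By complex, the contrast between both genomes was of different size. For complex I the ratio of mitochondrial to nuclear summed FPKM was 1.99 and 4.79 in EphrinB2 osteogenic cells, 4.07 and 12.4 in EphrinB2 complete cells, 5.16 and 4.79 in vector osteogenic cells and 4.16 and 4.62 in vector complete cells. For complex III it was 1.72 and 4.47 in EphrinB2 osteogenic cells, 4.43 and 9.12 in EphrinB2 complete cells, 4.49 and 4.01 in vector osteogenic cells and 4.52 and 4.69 in vector complete cells. For complex IV it was 1.19 and 3.74 in EphrinB2 osteogenic cells, 2.81 and 6.43 in EphrinB2 complete cells, 3.84 and 3.59 in vector osteogenic cells and 3.04 and 3.29 in vector complete cells. In these 3 complexes the libraries that stood apart held the lowest and the highest ratio. Complex V went the other way, with 0.0220 to 0.0373 over the 8 libraries, and its 2 mitochondrial genes are both in the low set. The level of mt-Atp6 is uncertain because of its chromosome 1 copy, and mt-Atp8 rests on an estimated 2 to 8 reads per library. The ratio of complex V thus cannot be read as a low transcript level. In complex IV mt-Co2 and mt-Co3 also have such copies, and its mitochondrial sum rests mostly on mt-Co1, which is matched by copies as well. How far the ratios differ between complexes is therefore uncertain. Complex II, which has no mitochondrial gene, summed to 202 and 136 FPKM in EphrinB2 osteogenic cells, 146 and 113 in EphrinB2 complete cells, 128 and 124 in vector osteogenic cells and 131 and 129 in vector complete cells.

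**Figure D2:**
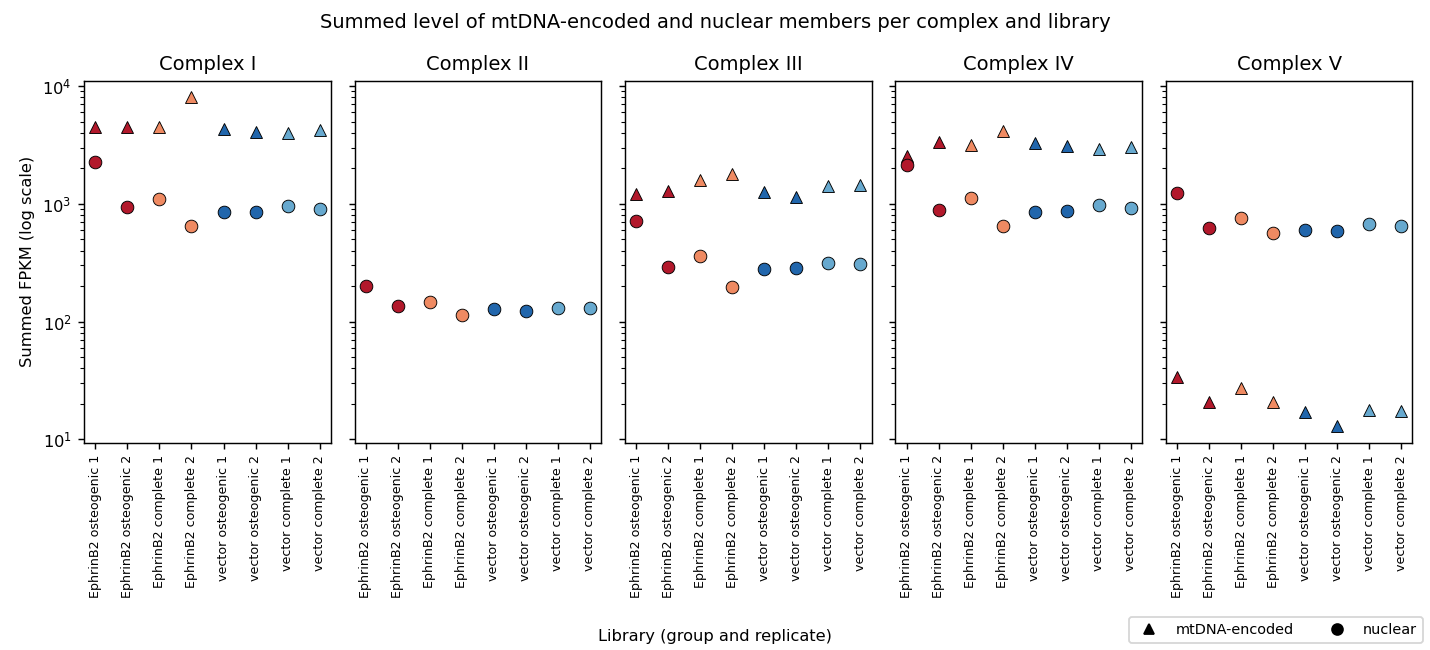
Summed FPKM (log scale) of mitochondrial (triangles) and nuclear (circles) genes for each complex and library, colored by group. In EphrinB2 osteogenic replicate 1 the pair of marks draws together in complexes I, III and IV (ratios 1.99, 1.72 and 1.19), and in EphrinB2 complete replicate 2 it draws apart (12.4, 9.12 and 6.43).

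Nuclear complex I holds the flavin and iron-sulfur subunits that take electrons from NADH (Ndufv1, Ndufv2, Ndufs1 and others) and a large set of accessory subunits. Its 3 most abundant genes over all libraries were the accessory subunits Ndufa2, Ndufa8 and Ndufb11, with means of 81.6, 59.1 and 59.0 FPKM. Ndufa2 had 217 and 62.9 FPKM in EphrinB2 osteogenic cells, 81.1 and 42.8 in EphrinB2 complete cells, 57.7 and 52.6 in vector osteogenic cells and 72.7 and 65.8 in vector complete cells. Ndufa8 had 122.0 and 49.1 FPKM in EphrinB2 osteogenic cells, 61.6 and 35.3 in EphrinB2 complete cells, 50.4 and 46.1 in vector osteogenic cells and 56.3 and 51.9 in vector complete cells. Ndufb11 ranged from 38.6 to 124 FPKM, lowest and highest in the same libraries as the other pair. Ndufa12, taken here after its values were seen, had 24.7 and 3.67 FPKM in EphrinB2 osteogenic cells, 4.46 and 2.43 in EphrinB2 complete cells, 3.03 and 2.57 in vector osteogenic cells and 4.05 and 3.802 in vector complete cells. Its 6.75-fold gap between EphrinB2 osteogenic libraries was the widest of the 88 nuclear genes tested. Ndufa4, also named after its values were seen, carries a complex I name but is known as a subunit of complex IV, and it ranged from 28.4 to 113 FPKM.

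All 4 subunits of complex II were expressed. Sdha, the flavoprotein, had 48.3 and 46.8 FPKM in EphrinB2 osteogenic cells, 43.0 and 46.1 in EphrinB2 complete cells, 43.5 and 43.5 in vector osteogenic cells and 43.2 and 42.9 in vector complete cells. Sdhb, the iron-sulfur subunit, had 47.3 and 23.0 FPKM in EphrinB2 osteogenic cells, 25.5 and 16.4 in EphrinB2 complete cells, 22.3 and 20.05 in vector osteogenic cells and 20.1 and 19.4 in vector complete cells. Sdha was the steadiest of the 88 nuclear genes between EphrinB2 osteogenic libraries (1.03-fold), while Sdhb differed between them. Of both membrane anchors, Sdhc had 36.7 and 22.3 FPKM in EphrinB2 osteogenic cells, 25.1 and 17.1 in EphrinB2 complete cells, 21.5 and 19.6 in vector osteogenic cells and 23.0 and 22.3 in vector complete cells. Sdhd, whose promoter is shown above, had 69.8 and 43.4 FPKM in EphrinB2 osteogenic cells, 52.5 and 33.4 in EphrinB2 complete cells, 40.3 and 40.5 in vector osteogenic cells and 45.03 and 44.5 in vector complete cells.

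In complex III the small subunits led. Uqcr10 had 157 and 58.0 FPKM in EphrinB2 osteogenic cells, 63.8 and 30.4 in EphrinB2 complete cells, 51.3 and 54.3 in vector osteogenic cells and 71.9 and 62.2 in vector complete cells. Uqcrh had 117.9 and 39.1 FPKM in EphrinB2 osteogenic cells, 50.2 and 29.1 in EphrinB2 complete cells, 38.5 and 40.004 in vector osteogenic cells and 40.1 and 39.7 in vector complete cells. Uqcr11 had 120.2 and 40.6 FPKM in EphrinB2 osteogenic cells, 49.3 and 14.5 in EphrinB2 complete cells, 37.2 and 37.2 in vector osteogenic cells and 48.0 and 43.2 in vector complete cells. Each was highest in EphrinB2 osteogenic replicate 1 and lowest in EphrinB2 complete replicate 2. The large core subunit Uqcrc2, named after its values were seen, ranged from 21.001 to 26.1 FPKM.

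Complex IV had the most abundant nuclear genes. Cox6a1 had 534 and 212 FPKM in EphrinB2 osteogenic cells, 267 and 156 in EphrinB2 complete cells, 198 and 203 in vector osteogenic cells and 243 and 223 in vector complete cells. Cox8a had 414 and 182 FPKM in EphrinB2 osteogenic cells, 249.2 and 121 in EphrinB2 complete cells, 188 and 188 in vector osteogenic cells and 221 and 203 in vector complete cells. Cox4i1, the largest nuclear subunit, had 308 and 117 FPKM in EphrinB2 osteogenic cells, 136 and 96.0 in EphrinB2 complete cells, 112 and 113 in vector osteogenic cells and 120.3 and 116 in vector complete cells. All 3 were again highest and lowest in the libraries that stood apart. In each isoform pair the widely expressed form led the restricted one. Cox4i2, an isoform linked to low oxygen, ranged from 0.955 to 3.71 FPKM, below Cox4i1 in every library. The heart and skeletal muscle isoform Cox6a2 had 1.00 and 0.458 FPKM in EphrinB2 osteogenic cells, 3.503 and 0.802 in EphrinB2 complete cells, 1.60 and 0.532 in vector osteogenic cells and 2.20 and 2.37 in vector complete cells. Cox7a1 (0.299 to 1.09 FPKM) and Cox8b (0 to 0.718), the muscle isoforms beside Cox7a2 (17.6 to 77.6) and Cox8a, did not pass the filter on low values. Cox7b2 and Cox8c were listed at 0 in all libraries.

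Complex V was led by both large subunits of its catalytic head. Atp5b had 175 and 128 FPKM in EphrinB2 osteogenic cells, 151 and 114 in EphrinB2 complete cells, 121 and 117 in vector osteogenic cells and 147 and 139.6 in vector complete cells. Atp5a1 had 145 and 109 FPKM in EphrinB2 osteogenic cells, 116 and 119 in EphrinB2 complete cells, 105 and 101 in vector osteogenic cells and 105.5 and 106 in vector complete cells. Both differed less between EphrinB2 osteogenic libraries than Atp5h, which had 139 and 50.4 FPKM there, 61.2 and 39.8 in EphrinB2 complete cells, 47.8 and 49.2 in vector osteogenic cells and 51.1 and 50.3 in vector complete cells. Atp5h is 1 of 5 nuclear members, with Atp5o, Ndufs3, Uqcrb and Atp5l, whose transcript is matched over more than 50% of its length by other annotated transcripts, so their levels are uncertain. Of the genes for the identical c subunit, Atp5g3 (26.1 to 92.8 FPKM) and Atp5g2 (32.8 to 64.0) stood above Atp5g1 (4.58 to 13.3) in every library. A second identifier for Atp5o was listed at 0 in all libraries. The 8 assembly factors were lower, with means of 2.39 to 14.03 FPKM. Ndufb2, a complex I subunit at 0.497 to 0.891 FPKM, was the last of the 6 members that did not pass the filter. It had an estimated 47 to 103 reads per library, and its longest coding transcript has 4371 bases, so its low FPKM does not mean few reads. Over the 88 nuclear genes tested, mean FPKM and merged exon length had a Spearman correlation of -0.37.

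Across these complexes the same libraries stood at the ends. EphrinB2 osteogenic replicate 1 was the highest library for 85 of 88 nuclear genes, with a median of 2.28-fold over its partner (1.03-fold for Sdha to 6.75-fold for Ndufa12). FPKM over all genes summed to 360626 in this library, against 262091 in its partner and 253613 to 269809 in the other libraries. The folds are not scaled to that total. EphrinB2 complete replicate 2 was the lowest for 64 of 88, with a median of 0.616 of its partner, and the highest for 9 of 13 mitochondrial genes. In vector cells the median ratio between partners was 0.996 in osteogenic and 1.03 in complete medium. Measured from the mean of vector complete cells on the log2(FPKM + 1) scale, the median over nuclear genes was 1.13 and -0.03 in EphrinB2 osteogenic cells, 0.23 and -0.38 in EphrinB2 complete cells and -0.09 and -0.10 in vector osteogenic cells. For mitochondrial genes the same medians were 0.25 and 0.12, 0.23 and 0.80, and -0.03 and -0.22. Over all 12994 genes tested the medians of these 6 libraries lay between -0.02 and 0.04.

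**Figure D3:**
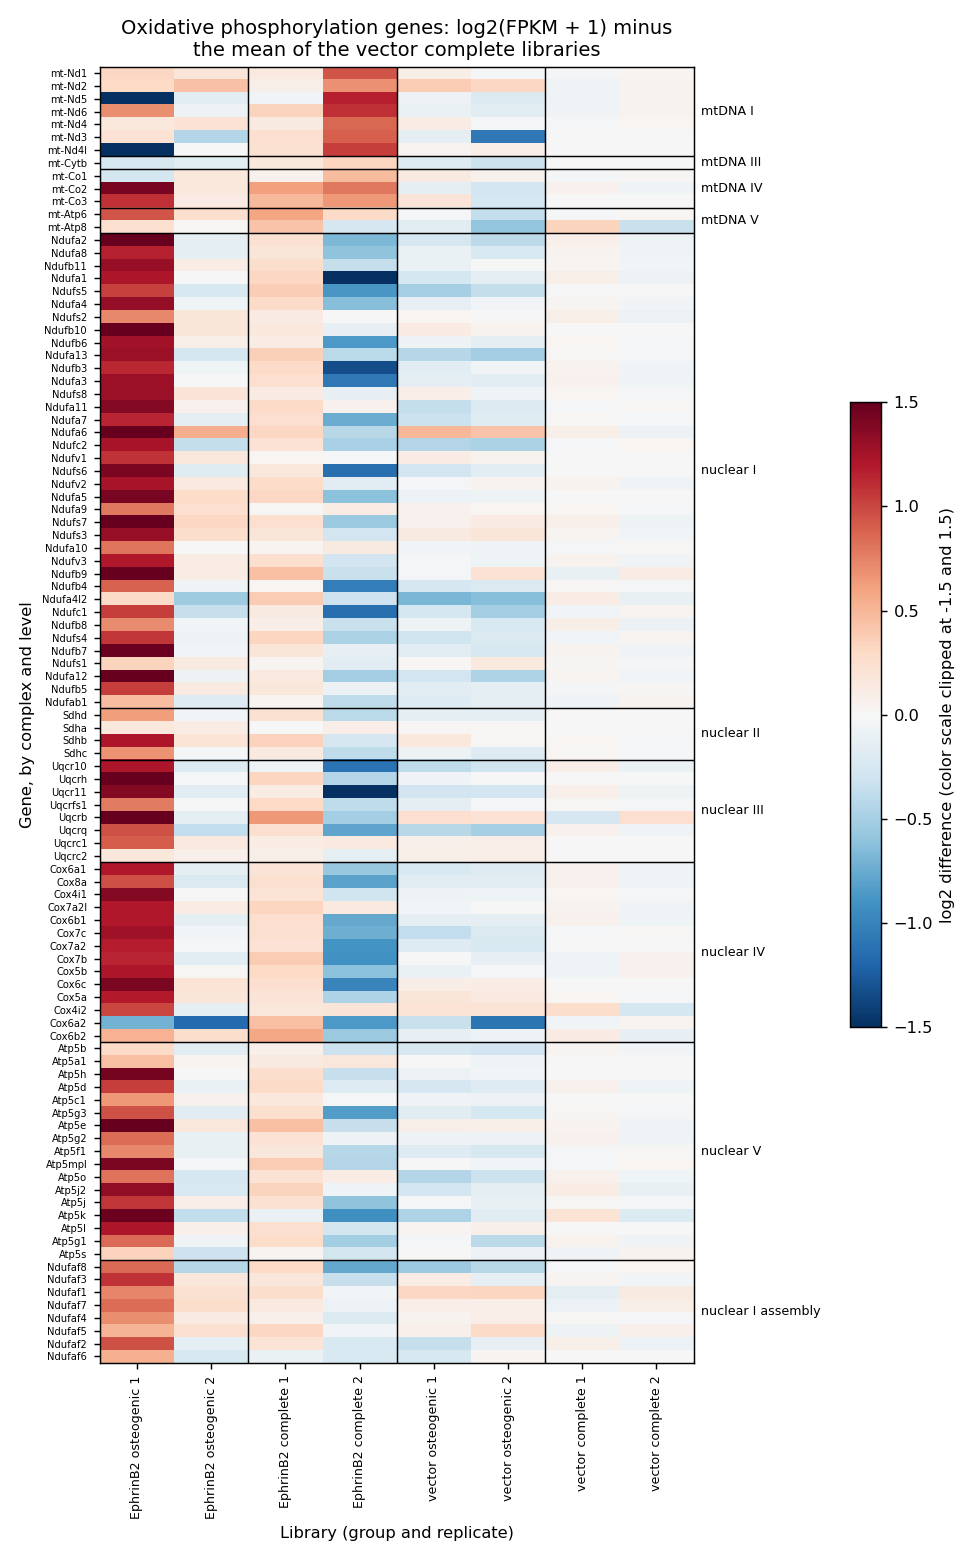
log2(FPKM + 1) of the 101 tested genes (rows, by genome and complex) in the 8 libraries (columns), minus the mean of vector complete cells, with red above and blue below. EphrinB2 osteogenic replicate 1 (left column) is red for most nuclear genes, with a median of 1.13, while its partner has a median of -0.03.

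Gene length moved with these deviations. Nuclear members were short, with a median merged exon length of 1631 bases, against 3958 for all genes tested. In EphrinB2 osteogenic replicate 1 the median deviation of nuclear members was 1.21 under 1 kb, 1.21 from 1 to 2 kb, 0.95 from 2 to 4 kb and 0.85 from 4 to 8 kb (20, 36, 22 and 9 members). Other tested genes of the same length classes had 0.18, 0.73, 0.32 and -0.13 there. These classes match length but not level, and the log2(FPKM + 1) scale understates the change of low genes. In EphrinB2 complete replicate 2 nuclear members had -0.83, -0.39, -0.24 and -0.28, and other genes -0.11, -0.23, -0.09 and 0.08. With the trend on length removed in each library, the median of nuclear members was 0.65 in EphrinB2 osteogenic replicate 1 and -0.23 in EphrinB2 complete replicate 2. Mitochondrial genes, with a median length of 784 bases, then stood at -0.27 and 0.98 in these libraries. In bulk RNA, more cells of a type and more RNA per cell cannot be told apart, and the part of RNA quality or of library preparation in these libraries was not tested.

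**Figure D4:**
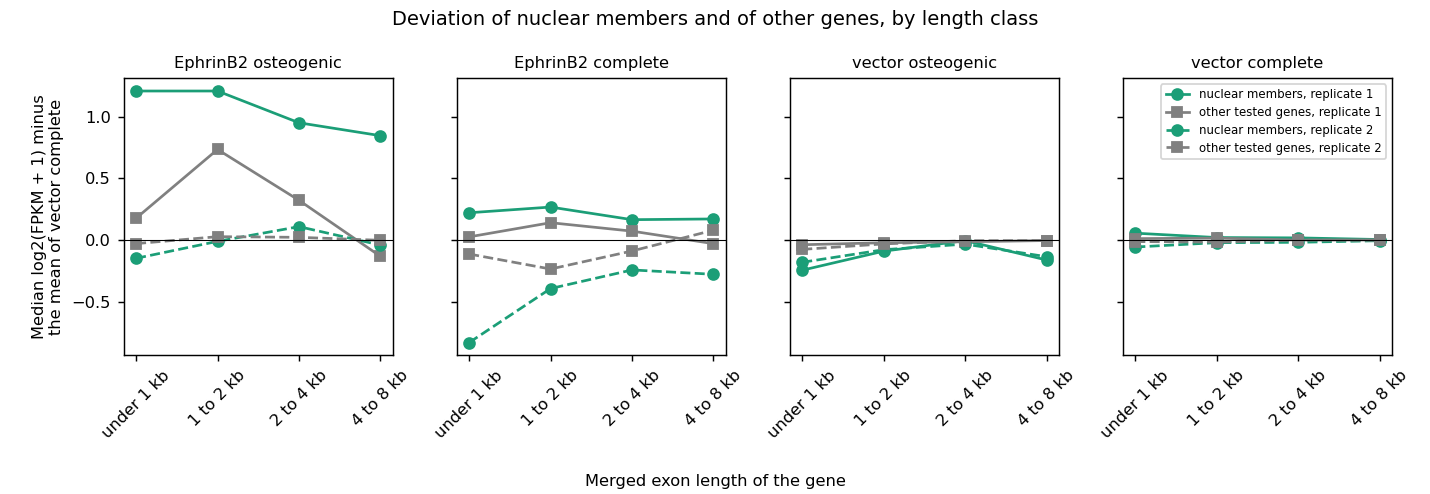
Median log2(FPKM + 1) minus the mean of vector complete cells for nuclear members (green) and other tested genes (gray) in 4 classes of merged exon length, in each group, with solid lines for replicate 1 and dashed lines for replicate 2. In EphrinB2 osteogenic replicate 1 the nuclear members lie above other genes in every class, by 1.21 against 0.18 under 1 kb and 0.85 against -0.13 from 4 to 8 kb. The classes match length but not level.

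The first comparison asked how osteogenic medium differed from complete medium in vector cells. With all 8 libraries in the fit, limma called 0 of 101 members at an adjusted p under 0.05, against 7.52% of all genes tested. At an unadjusted p under 0.05 there were 0 members, against 19.5% of all genes. Median log2 differences were -0.13 for mitochondrial and -0.09 for nuclear genes, against -0.02 for all genes. The mitochondrial median was -0.03 without vector osteogenic replicate 2, -0.04 without vector complete replicate 1, -0.08 without vector complete replicate 2 and -0.22 without vector osteogenic replicate 1. Of 88 nuclear genes, 49 had both osteogenic libraries below both complete ones (38.8% of all genes) and 15 had both above (34.4%). Of 13 mitochondrial genes, 5 lay wholly below and 3 wholly above. That fit shares its estimate of spread with the EphrinB2 groups. With only the vector groups in the fit, limma called 29 members (28.7%), against 40.6% of all genes. The share called among members was thus below that of all genes.

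In that fit of vector cells alone, 25 of 88 nuclear genes fell in osteogenic medium, against 22.1% of all genes, and 2 rose, against 18.5%, all by less than 2-fold. The examples were chosen after their values were seen, and adjusted p-values are from limma. Complex I had 12 genes that fell and 1 that rose. Ndufa4l2, an isoform of Ndufa4 linked to low oxygen, had 9.01 and 9.29 FPKM in vector osteogenic cells and 16.4 and 13.9 in vector complete cells, a log2 difference of -0.66 (SE 0.09, adjusted p = 0.00604). The accessory subunits Ndufa13 (-0.47), Ndufc2 (-0.46) and Ndufs5 (-0.43) fell as well. Ndufa6, another accessory subunit, rose by 0.46, with 26.6 and 25.3 FPKM in vector osteogenic cells and 19.8 and 17.4 in vector complete cells. Complex III had 3 genes that fell, Uqcrq (-0.46), Uqcr10 (-0.34) and Uqcr11 (-0.28). In complex IV Cox7c (-0.29), Cox6a1 (-0.21) and Cox7a2 (-0.21) fell and Cox5a rose (0.16). In complex V 5 genes fell, from Atp5o (-0.38) and Atp5b (-0.27) to Atp5f1 (-0.21). Sdhd (-0.14) and the assembly factor Ndufaf8 (-0.48) fell too. Of the mitochondrial genes mt-Nd2 rose (0.35) and mt-Cytb fell (-0.26). Among nuclear complex I genes called in this fit, both signs thus occurred.

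Markers of other cells moved with medium. With all 8 libraries, 7 of 10 macrophage markers rose in vector cells and 9 of 10 in EphrinB2 cells, against 4.41% and 6.36% of all genes. Their summed FPKM was 937 to 1737 in the osteogenic libraries and 252 to 409 in the complete libraries. Fibroblast markers summed to 2291 to 2770 in osteogenic and 3348 to 4233 in complete libraries. That sum is weighted to the most abundant markers. Col1a1 had 281 to 433 FPKM in osteogenic and 1422 to 2087 in complete libraries, while Dcn had 612 to 801 and 118 to 232. Log2 differences of the 10 markers were above 0 for 4 in vector cells and for 5 in EphrinB2 cells. Of the 10, 3 fell and 1 rose in each kind of cell. Of all genes, 3.11% fell in vector cells and 5.44% in EphrinB2 cells. Of 10 cardiomyocyte markers only Tnnt2 reached 1 FPKM, and it rose to 8.20 to 14.8 FPKM in EphrinB2 osteogenic cells, against 0.720 to 0.742 in EphrinB2 complete cells, and to 5.46 to 6.61 FPKM in vector osteogenic cells, against 0.478 to 0.771 in vector complete cells. Of 5 adipocyte markers only Fabp4 was tested, and it rose in both kinds of cell, by 4.36 in EphrinB2 cells and 3.56 in vector cells. Of 3 tested endothelial markers 1, Cdh5, fell in both, and of 2 tested smooth muscle markers 0 were called. Without both libraries that stood apart, 9 of 10 macrophage markers had log2 differences above 0 between media in EphrinB2 cells, with a median of 1.36. Of the 10 fibroblast markers 3 did, with a median of -0.41. The part of these cells in the values of the members was not tested.

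The second comparison set osteogenic against complete medium in EphrinB2 cells. Limma called 0 of 101 members, against 11.8% of all genes, with 6 members at an unadjusted p under 0.05 (30.2% of all genes). Median log2 differences were 0.65 for nuclear and -0.31 for mitochondrial genes, against 0.03 for all genes, and the sign of the nuclear median turned to -0.25 without both libraries that stood apart. The mitochondrial median was -0.03 without EphrinB2 complete replicate 2 alone. Nuclear medians were 0.74 for complex I, 0.42 for complex II, 0.61 for complex III, 0.74 for complex IV and 0.43 for complex V. The smallest adjusted p among members was that of Ndufa6, named like Ndufa11 and Ndufb5 further on after its value was seen, with 66.0 and 27.7 FPKM in EphrinB2 osteogenic cells and 23.3 and 13.7 in EphrinB2 complete cells. Its log2 difference was 1.22 (SE 0.41, adjusted p = 0.110). The next were mt-Nd4l (-1.41, SE 0.50, adjusted p = 0.118) and mt-Nd5 (-1.39, SE 0.52, adjusted p = 0.131). Only 13 of 88 nuclear genes had both osteogenic libraries above both complete ones (24.3% of all genes) and 0 had both below (23.6%). With only the EphrinB2 groups in the fit, 0 members were called, against 1.18% of all genes. In that fit 0 members had an unadjusted p under 0.05, against 15.4% of all genes.

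Without EphrinB2 complete replicate 2 and EphrinB2 osteogenic replicate 1, 30 members passed the test in EphrinB2 cells, against 29.7% of all genes. Of these, 27 were nuclear genes that fell (15.7% of all genes fell), while 1 mitochondrial gene rose (14% of all genes rose) and 2 fell. Without EphrinB2 osteogenic replicate 2 instead, 69 members passed, against 43.8% of all genes. Of these, 65 were nuclear genes that rose, against 23.1% of all genes that rose and 20.6% that fell. Without EphrinB2 complete replicate 1, 2 members passed, against 13.6% of all genes. Which EphrinB2 libraries are kept thus sets both the number and the sign of the calls. In these fits the lone library of a group is assumed to vary like the libraries of other groups.

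The third comparison set EphrinB2 against vector cells in complete medium. Limma called 0 of 101 members, against 0.0077% of all genes, with 0 members at an unadjusted p under 0.05 (1.29% of all genes). The median log2 difference was 0.54 for mitochondrial genes, with 13 of 13 above 0, and -0.07 for nuclear genes, which turned to 0.23 without EphrinB2 complete replicate 2, against 0.01 for all genes. Both EphrinB2 libraries lay above both vector libraries for 11 of 13 mitochondrial genes and for 6 of 88 nuclear genes (14.3% of all genes), and below for 1 nuclear gene (11.5%). Without both libraries that stood apart the medians were 0.23 for both mitochondrial and nuclear genes. In that fit 84 of 88 nuclear genes lay above 0 and 54 members had an unadjusted p under 0.05 (20.6% of all genes), with 0 called (0.0154% of all genes).

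The fourth comparison set EphrinB2 against vector cells in osteogenic medium. Limma called 0 of 101 members, against 0% of all genes, with 4 members at an unadjusted p under 0.05 (3.39% of all genes): mt-Co2, mt-Atp6, Ndufa11 and Ndufb5. Median log2 differences were 0.67 for nuclear genes, with 87 of 88 above 0, and 0.21 for mitochondrial genes, whose sign turned to -0.06 with values rescaled to TPM, -0.07 scaled to genes outside mitochondrial DNA and -0.09 with the length trend removed, against 0.01 for all genes. Both EphrinB2 libraries lay above both vector libraries for 62 of 88 nuclear genes (25.6% of all genes) and below for 0 (22.3%). For mt-Atp6 the log2 difference was 0.79 (SE 0.26, adjusted p = 0.567) and for mt-Co2 1.01 (SE 0.38, adjusted p = 0.567), both genes with a chromosome 1 copy. Without both libraries that stood apart the medians were 0.10 for nuclear and 0.14 for mitochondrial genes. Without EphrinB2 osteogenic replicate 2 instead, 51 members passed, against 21.1% of all genes.

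The interaction asked whether the difference between media depended on EphrinB2. Limma called 0 of 101 members, against 0% of all genes, with 0 members at an unadjusted p under 0.05 (1.65% of all genes). The median was 0.73 for nuclear and -0.27 for mitochondrial genes, against 0.00 for all genes, and the signs turned to -0.11 for nuclear genes without both libraries that stood apart and to 0.07 for mitochondrial genes without EphrinB2 complete replicate 2.

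**Figure D5:**
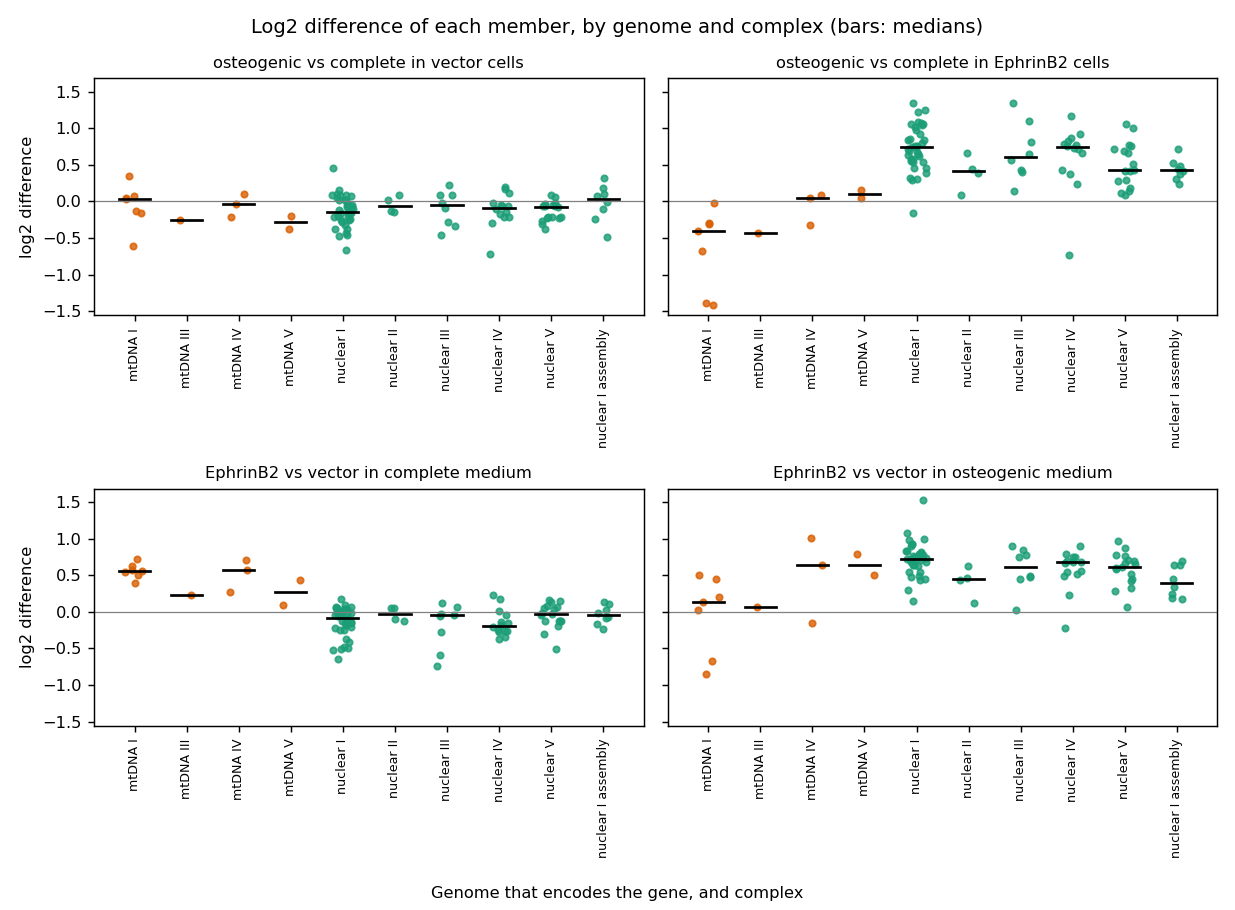
Log2 difference of each tested gene (points) by genome and complex, with medians as bars, in the 4 comparisons. In EphrinB2 cells nuclear complexes lie above 0 in osteogenic minus complete medium (medians 0.42 to 0.74), but without both libraries that stood apart the nuclear median is -0.25.

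Other mitochondrial genes were listed alongside. The 77 genes of the mitochondrial ribosome had a median of 0.55 between media in EphrinB2 cells, with 77 of 77 above 0, and -0.04 in vector cells, with 29 of 77 above 0. EphrinB2 minus vector cells had 0.50 in osteogenic and -0.06 in complete medium. With all 8 libraries in the fit, limma called 0 of the 77 in these comparisons. Between media it called 7.52% of all genes in vector cells and 11.8% in EphrinB2 cells. The smallest adjusted p among the 77 was 0.0649 (limma). As the spread is shared with the libraries that stood apart, 0 called does not show levels to be unchanged. Without both libraries that stood apart the medians were -0.13 between media in EphrinB2 cells, with 26 of 77 above 0, and 0.09 and 0.18 for EphrinB2 minus vector cells in osteogenic and complete medium. In vector cells the median between media stayed at -0.04 in that fit. The 41 assembly factors of all complexes take in the 8 Ndufaf genes, which are members. Their median between media was 0.31 in EphrinB2 cells, which turned to -0.14 without both libraries, and -0.07 in vector cells. With all 8 libraries in the fit 0 of them were called between media, against the same shares of all genes. Cycs, the electron carrier cytochrome c, had 19.5 and 11.8 FPKM in EphrinB2 osteogenic cells, 13.7 and 7.20 in EphrinB2 complete cells, 10.7 and 10.1 in vector osteogenic cells and 11.8 and 12.2 in vector complete cells. Cyc1, the heme subunit of complex III outside the name rule, ranged from 20.3 to 36.5 FPKM. Both were highest in EphrinB2 osteogenic replicate 1 and lowest in EphrinB2 complete replicate 2.

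Regulators of these genes were listed too. Among 20 tested genes of biogenesis and mitochondrial transcription, 0 were called with all 8 libraries in the fit. Between media 11.8% of all genes were called in EphrinB2 cells and 7.52% in vector cells. The medians of the 20 genes were 0.15 between media in EphrinB2 cells and 0.03 in vector cells. Without both libraries that stood apart, these medians were 0.06 in EphrinB2 cells and 0.03 in vector cells. Tfam, which packages and transcribes mitochondrial DNA, had 6.11 and 5.13 FPKM in EphrinB2 osteogenic cells, 5.54 and 4.60 in EphrinB2 complete cells, 4.21 and 4.10 in vector osteogenic cells and 5.31 and 4.88 in vector complete cells. The coactivator Ppargc1a, a master regulator of mitochondrial biogenesis, had 0.111 to 0.337 FPKM in osteogenic and 0.00809 to 0.0314 in complete libraries. These values lie near the floor, and the gene did not pass the filter and was not tested. Citrate cycle (16 genes) and glycolysis (16 genes) had 0 called with all 8 libraries in the fit, against the same shares of all genes between media. Their medians between media were 0.31 and 0.00 in EphrinB2 cells and -0.03 and -0.19 in vector cells. In vector cells 4 of 16 citrate cycle and 5 of 16 glycolysis genes lay above 0. That fit shares its estimate of spread with the libraries that stood apart, so 0 called does not show levels to be unchanged. Without both libraries the medians in EphrinB2 cells were 0.0044 and -0.07.

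With all 8 libraries in the fit, 2 genes of the lists on mitochondrial metabolism were called, neither of them a member. Ucp2, an inner membrane carrier of the uncoupling protein family, had 26.8 and 20.9 FPKM in EphrinB2 osteogenic cells and 8.04 and 6.60 in EphrinB2 complete cells, and 25.1 and 26.0 in vector osteogenic cells and 10.2 and 8.92 in vector complete cells. It rose by 1.57 on the log2 scale in EphrinB2 cells (SE 0.18, adjusted p = 0.0035, limma) and by 1.33 in vector cells (SE 0.18, adjusted p = 0.0077, limma), with no overlap between media. Acadm, which starts the oxidation of medium-chain fatty acids, rose by 1.00 in EphrinB2 cells (SE 0.22, adjusted p = 0.0351, limma), with 30.03 and 22.8 FPKM in osteogenic and 15.4 and 10.3 in complete medium. In vector cells it had 19.2 and 21.1 FPKM in osteogenic and 11.97 and 11.7 in complete medium (0.72, adjusted p = 0.126). It was the only gene of 10 listed for fatty acid oxidation called in that fit. Without both libraries that stood apart Ucp2 rose by 1.27 and Acadm by 0.54 in EphrinB2 cells, with adjusted p-values of 0.00315 and 0.0143 (limma).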

How the data were processed

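RNA of 8 libraries was sequenced, and the deposited table holds 1 FPKM value per gene and library, made by the authors. Per the submitters' processing notes the build was mm10 and the tools were DESeq2 1.16.1, featureCounts 1.5.0-p3, HISAT2 2.0.5 and CASAVA. Annotation, strand setting and treatment of multi-mapping reads were not given in the sources used here. GENCODE M21 on GRCm38, the assembly of mm10, supplied symbols, positions and merged exon lengths. Of 54532 identifiers, 37 did not match. Rows with a matching symbol that are not protein coding, 13 in all, were left out.

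FPKM values are not counts, so log2(FPKM + 1) was tested, and fold changes on that scale understate the change of low genes. The 12994 genes with at least 1 FPKM in at least 2 libraries entered limma 3.58.1 (R 4.3.3), with a mean per group, a mean-variance trend, 4 residual degrees of freedom and Benjamini-Hochberg adjustment over all genes, with a threshold of 0.05. The fit assumes equal spread in all groups. Depth was estimated from FPKM multiplied by merged exon length, which gave whole multiples of 1 step (within 0.02 reads) in 98.1% to 98.3% of the genes that had fewer than 50. Annotated copies were found with blastn 2.17.0. Promoters are those of RefSeq. The steps were tested on simulated data.

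Members and lists were chosen with earlier results of these data known, and no p-value was made over the members alone. Named genes are all mitochondrial members, complex II, the 3 most abundant nuclear genes of each other complex, isoform pairs, called genes, Efnb2, and Ppargc1a, Tfam, Cycs and Cyc1. Others are marked. Alternatives were the pseudocount, the filter, 2 scalings, removal of the length trend, the variance trend, the libraries in the fit and leaving out each library.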

Additional observations from a re-analysis of the deposited data

How the results depend on the processing

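The count of 0 members called held in all 5 comparisons with a pseudocount of 0.1, without a filter, under both scalings and without the variance trend. For media in vector cells it was 1 with the length trend removed (12.3% of all genes), 29 with only the groups compared and 29 without both libraries that stood apart (40.6% of all genes each), and 29 in each of those fits with the length trend also removed (41.7%). For media in EphrinB2 cells it was 30 without both libraries (29.7%) and 28 with the length trend also removed (29.9%). Leaving out single libraries gave 0 to 69 members for media in EphrinB2 cells, 0 to 51 for EphrinB2 against vector cells in osteogenic medium and 0 in the other comparisons. The cause was not tested.

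The log2 ratio of mitochondrial to nuclear sums, without both libraries, was 0.26 for media in EphrinB2 cells, -0.0027 for EphrinB2 against vector cells in osteogenic medium and 0.11 for the interaction. With the length trend also removed it was 0.26, -0.0084 and 0.12, and -0.13 for EphrinB2 against vector cells in complete medium. Leaving out single libraries gave -1.70 to -0.38, -1.32 to -0.0027 and -1.85 to -0.53 for the first 3, and -0.11 (without EphrinB2 complete replicate 2) to 1.17 (without EphrinB2 complete replicate 1) for EphrinB2 against vector cells in complete medium. Rescaling to TPM moved the median of all genes to -0.15 for media in EphrinB2 cells and to -0.23 for EphrinB2 against vector cells in osteogenic medium, where nuclear genes had 0.46 and 0.42. The 2 alternatives that combine 2 choices, and the other gene lists without both libraries, were added after seeing the data. No paired analysis was possible because the labels give no replicate numbers. Depth limits low genes: mt-Atp8 rests on an estimated 2 to 8 reads per library and Cox6a2 on 6 to 46. Each group has 2 libraries.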
